A study of Mus musculus with 6 samples.

Results

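The genes of oxidative phosphorylation were described here in mouse induced T (iT) cells, sorted as CD4 or CD8 single-positive (CD4SP and CD8SP). Members were all rows of the expression table named as a complex I subunit or assembly factor (Ndufa, Ndufb, Ndufc, Ndufs or Ndufv), as Sdha to Sdhd, as Uqcr, as Cox4 to Cox8, or as Atp5. Of 23420 rows, 92 carried such a name, and 84 of these had at least 1 TPM (a transcript share, scaled for gene length and to a fixed library total) in at least 3 of the 6 libraries. By their names, the 84 genes were grouped as complex I (44), complex II (4), complex III (8), complex IV (11) and complex V (17).

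The iT cells were grown in irradiated immunodeficient B-NDG mice (NOD background, Prkdc scid and Il2rg deficient, CD45.1) transplanted with blood progenitors made from iR9 embryonic stem cells. These donor cells are C57BL/6 and CD45.2, and carry a doxycycline-inducible Runx1-p2a-Hoxa9 cassette at Rosa26. All 6 libraries share that donor line and that host. Spleen cells were sorted with gates that included CD45.2+, Ter119-, CD11b- and either CD4+ or CD8+ at week 5 after transplantation, with 1000 cells per library and 3 libraries per population. Which mouse each library came from is not given, so the tests measure the spread between these libraries. The libraries carried T cell transcripts, with Cd3d at 979 to 1160 TPM, and the sorted markers separated them. Cd4 was at 279 to 331 TPM in CD4SP and at most 0.104 TPM in CD8SP libraries, and Cd8a was at most 2.93 TPM in CD4SP and 1038 to 1161 TPM in CD8SP libraries. Markers of other cell types were also read. The 6 myeloid markers summed to 17.1 to 31.3 TPM in CD4SP and 3.64 to 9.09 TPM in CD8SP libraries, nearly all of it Lyz2, and S100a8 and S100a9 were listed at 0. The B cell genes Ms4a1 and Pax5 were listed at 0 in all libraries, while Cd79b was at 10.9 to 21.6 TPM and Cd79a at 1.52 to 3.56 TPM. The erythroid gene Alas2 and the platelet genes Pf4 and Ppbp were at 0, and Hba-a2 and Hba-a1 were at 0.982 and 0.129 TPM in CD4SP replicate 2 and at 0 in the other libraries. The 3 NK cell markers summed to 80.8 to 85.3 TPM in CD4SP and 420 to 481 TPM in CD8SP libraries. Of these Ncr1 was listed at 0, Klrb1c was at 0.682 to 1.82 TPM in CD4SP and 5.22 to 9.14 TPM in CD8SP libraries, and Klrd1 was at 79.4 to 84.1 TPM in CD4SP and 411 to 476 TPM in CD8SP libraries. The part of these other transcripts in the results below was not tested. In such bulk libraries, fewer cells of a type and less RNA per cell cannot be told apart.

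Oxidative phosphorylation takes place in the inner mitochondrial membrane. Complexes I and II pass electrons from NADH and succinate to ubiquinone, complex III passes them to cytochrome c, and complex IV passes them to oxygen. Complexes I, III and IV pump protons, and complex V, the ATP synthase, uses the resulting gradient to make ATP. Most subunits are encoded in the nucleus, and a small set of core subunits in mitochondrial DNA. T cells are known to rely on this pathway when quiescent and as memory cells, and to raise glycolysis when activated. The 13 mitochondrially encoded subunits had no row under the names searched (such as mt-Nd1), so every value below concerns nuclear genes.

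Many promoters of this pathway are known to hold sites for the nuclear respiratory factor NRF1, for ETS factors such as GABP, and for YY1. A promoter window of 250 bases before to 50 bases after the gene start, from RefSeq on GRCm38.p6, was found for 72 of the 84 members, 3 of them through a synonym. These windows were searched on both strands for GCGCATGC (NRF1), CCGGAAGT (ETS) and AAGATGGC (YY1). The NRF1 letters can overlap their own reverse complement, and no match of one motif overlapped a match of another in the windows shown. A gene was counted when any of its windows held the letters. The NRF1 letters were found for 12 of the 72 members (16.7%) and for 3.05% of 27025 genes. Those 27025 were all genes with a window, whether or not iT cells express them. The YY1 letters were in 11 members (15.3%) and 3.19% of all genes, and the ETS letters in 5 members (6.94%) and 4.31% of all genes. At least 1 of these motifs was in 27 of 72 members (37.5%) and in 9.91% of all genes. These shares describe letters in a window, and say nothing of binding in iT cells. The windows below are those of Ndufa10, the only member past the adjusted p, of Uqcr11, which held both NRF1 and ETS letters, and of Cox6a1 and Atp5j2, the most abundant members with NRF1 and with YY1 letters. Capitals mark the motifs, all 4 windows lie on the minus strand and are written 5′ to 3′ along the gene, and Ndufa10 held none of the motifs.
Ndufa10, chr1:92473709-92474008: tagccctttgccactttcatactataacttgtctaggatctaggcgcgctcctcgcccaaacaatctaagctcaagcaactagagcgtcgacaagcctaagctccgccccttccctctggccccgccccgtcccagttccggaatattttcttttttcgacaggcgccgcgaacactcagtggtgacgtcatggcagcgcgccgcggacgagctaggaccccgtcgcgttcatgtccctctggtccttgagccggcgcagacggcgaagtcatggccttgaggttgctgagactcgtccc
Uqcr11, chr10:80406772-80407071: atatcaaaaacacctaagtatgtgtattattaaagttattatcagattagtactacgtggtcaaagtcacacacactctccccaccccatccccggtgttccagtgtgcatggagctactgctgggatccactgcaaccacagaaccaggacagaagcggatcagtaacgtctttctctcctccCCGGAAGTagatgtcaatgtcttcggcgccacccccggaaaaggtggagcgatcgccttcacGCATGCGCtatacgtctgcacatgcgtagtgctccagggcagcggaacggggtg
Cox6a1, chr5:115348909-115349208: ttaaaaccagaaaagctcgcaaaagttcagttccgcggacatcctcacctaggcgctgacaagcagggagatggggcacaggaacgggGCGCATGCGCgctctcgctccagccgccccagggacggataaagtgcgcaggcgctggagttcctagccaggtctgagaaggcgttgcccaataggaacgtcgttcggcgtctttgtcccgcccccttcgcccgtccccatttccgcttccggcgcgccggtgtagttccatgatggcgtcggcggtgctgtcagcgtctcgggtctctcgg
Atp5j2, chr5:145191492-145191791: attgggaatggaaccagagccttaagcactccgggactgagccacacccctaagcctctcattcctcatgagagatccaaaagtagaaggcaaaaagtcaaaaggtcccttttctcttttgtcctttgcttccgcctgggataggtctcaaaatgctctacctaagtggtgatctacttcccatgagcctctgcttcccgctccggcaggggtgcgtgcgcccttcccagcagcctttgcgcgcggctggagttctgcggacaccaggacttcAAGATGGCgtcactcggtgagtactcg

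The members were among the most abundant transcripts of iT cells. TPM is scaled per transcript length, which allows levels of different genes to be set side by side only roughly. Across the 84 members, log2 mean TPM had a Pearson correlation of -0.31 with log2 coding length. With the GC percent of the longest transcript it was 0.26. The median of the members' 6-library means was 336 TPM, against 17.6 TPM over the 10476 genes tested, and 66 of the 84 ranked among the 1000 most abundant rows. Means ran from 8.81 TPM for Atp5s to 1570 TPM for Cox4i1. The lowest value of any of the 84 in any library was 2.37 TPM, so no member entered through 1 population alone. Median levels differed between complexes, at 213 TPM for complex I, 147 TPM for complex II, 355 TPM for complex III, 652 TPM for complex IV and 553 TPM for complex V. The part of length and GC content in these levels was not tested.

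**Figure D1:**
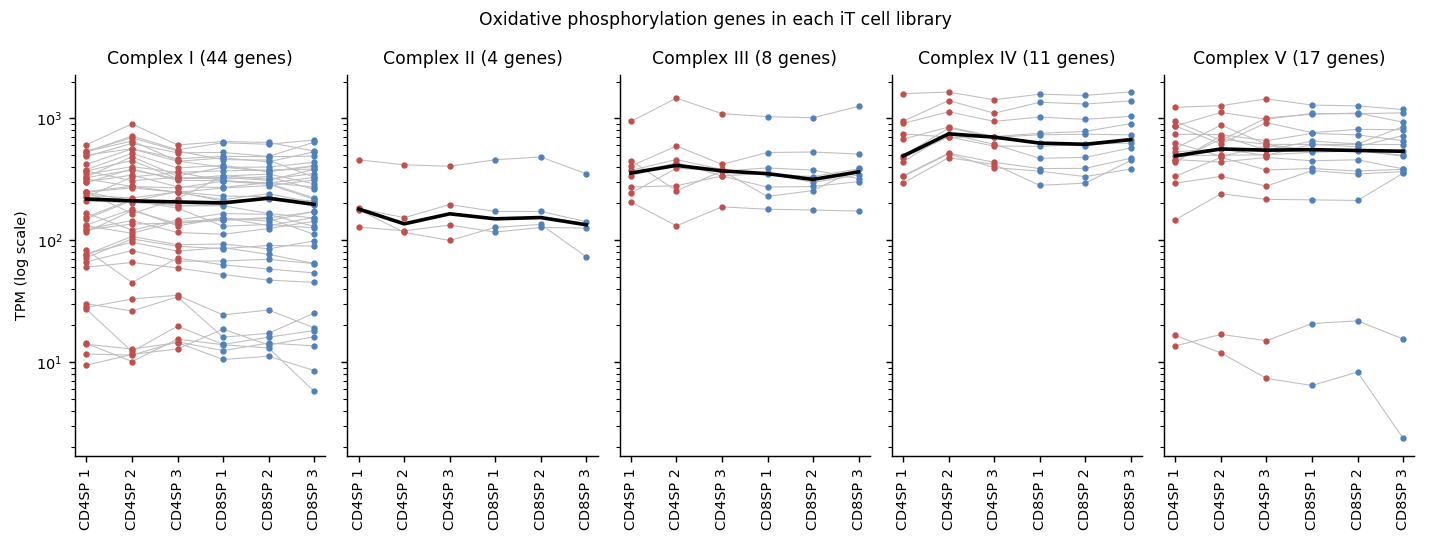
TPM (log axis) of the 84 members in each library, with 1 panel per complex, red points for CD4SP, blue points for CD8SP, grey lines following 1 gene each and a black line at the median. Subunits of complex IV sit between 282 and 1648 TPM in every library, while the complex I assembly factors, Ndufs5, Atp5s and Atp5sl lie at or under 65.7 TPM.

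Summed over all members, oxidative phosphorylation transcripts made up 3.05%, 3.60% and 3.22% of TPM in CD4SP replicates 1 to 3. The share was 3.25%, 3.21% and 3.31% in CD8SP replicates 1 to 3. The populations overlapped, with means of 3.29% ± 0.280 (SD, n = 3) and 3.26% ± 0.0511 (SD, n = 3). By complex, the summed TPM of CD4SP over that of CD8SP was 1.06 for complex I, 1.04 for complex II, 1.05 for complex III, 0.988 for complex IV and 0.960 for complex V. Complex V was the only one of the 5 whose libraries did not overlap, a separation for which an exact test of 3 libraries against 3 cannot go below p = 0.1. It summed to 9012, 9735 and 9740 TPM over CD4SP and to 9917, 9856 and 9890 TPM over CD8SP replicates 1 to 3. These sums move with the scaling of each library, and another class of transcripts moved with the populations. Cytoplasmic ribosomal protein genes took 25.8% ± 2.58 of CD4SP TPM and 33.6% ± 2.06 of CD8SP TPM (SD, n = 3), without overlap. As a share of TPM outside the ribosomal protein genes, the members made up 4.44% ± 0.538 and 4.91% ± 0.231 in CD4SP and CD8SP libraries (SD, n = 3), which overlapped. CD4SP libraries also listed more genes at 1 TPM or more, 10524 ± 171 against 10081 ± 96.1 (SD, n = 3). The part of these differences in the values of single members was not tested.

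**Figure D2:**
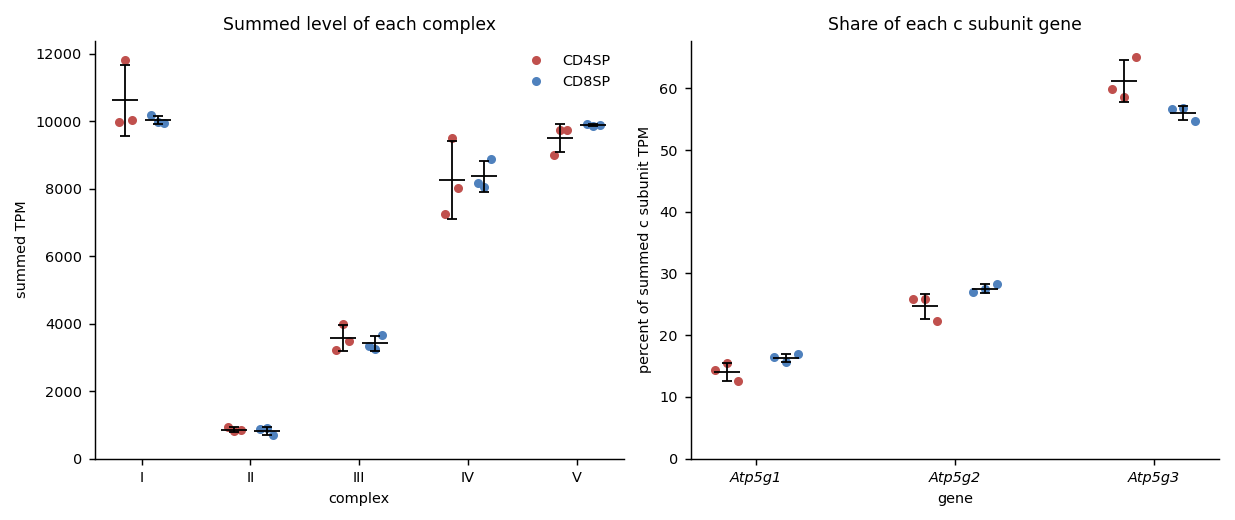
Left, summed TPM of each complex, and right, the percent of summed c subunit TPM carried by each c subunit gene, with 1 point per library (red CD4SP, blue CD8SP) and a bar at the mean ± SD of 3 libraries. Sums of complexes I to IV overlap between the populations, while the 3 CD8SP sums of complex V lie between 9856 and 9917 TPM, above all 3 CD4SP sums.

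Within the summed members, the balance of the complexes was close in both populations. Complex I held 32.3% ± 0.959 and 30.9% ± 0.697 of the members' TPM in CD4SP and CD8SP libraries (SD, n = 3). Complex V held 29.0% ± 1.67 and 30.4% ± 0.440 (SD, n = 3), complex IV 25.1% ± 1.33 and 25.7% ± 0.998, complex III 10.9% ± 0.268 and 10.5% ± 0.521, and complex II 2.64% ± 0.434 and 2.55% ± 0.404. Such shares do not depend on the scaling of a library. All 5 overlapped between the populations, and exact two-sided permutation tests gave p values from 0.2 to 0.8 (0.36 to 0.8 adjusted over 9 shares), where 3 libraries against 3 cannot go below 0.1.

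Each gene was tested between CD4SP and CD8SP iT cells with limma on log2(TPM + 1). Positive log2 fold changes stand for higher values in CD4SP. A gene was called when its Benjamini-Hochberg adjusted p over all 10476 tested genes was under 0.05 and its change was over 2-fold. No member was called, against 9.73% of all tested genes. At any size of change, 1 member had an adjusted p under 0.05 with higher values in CD8SP (1.19% of members, against 3.23% of tested genes), and 0 members with higher values in CD4SP (against 17.6% of tested genes). At an unadjusted p under 0.05, limma gave 7 members higher in CD4SP and 3 higher in CD8SP, which is 10 of 84 against 37.1% of tested genes. The 3 libraries of CD4SP all lay above those of CD8SP for 9 members (10.7%), against 36.6% of tested genes. The reverse held for 6 members (7.14%), against 6.61% of tested genes. Without CD4SP replicate 2, a library described further below, these counts were 19 (22.6%, against 55.1% of tested genes) and 18 (21.4%, against 8.71%), where 2 libraries against 3 separate more easily.

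The estimates were narrow enough to bound most differences. The 95% interval of the log2 fold change stayed within 2-fold for 80 of 84 members (95.2%) and within 1.5-fold for 62 (73.8%). The same intervals stayed within 2-fold for 58.1% and within 1.5-fold for 16.5% of all tested genes. Among the 6912 tested genes whose mean level lay in the members' range (8.81 to 1570 TPM), the shares were 71.3% and 23.7%. So wide a range does not match levels, since the members' median was 336 TPM, against 17.6 TPM over all tested genes. Over the 6 libraries, the highest value was under 2 times the lowest for 76 members (90.5%), against 65.3% of genes in that range of levels. How much of these contrasts comes from the members' high levels was not tested. The 4 members whose interval reached past 2-fold were Ndufa10, Ndufaf2, Ndufs5 and Atp5s, named after their values were seen.

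**Figure D3:**
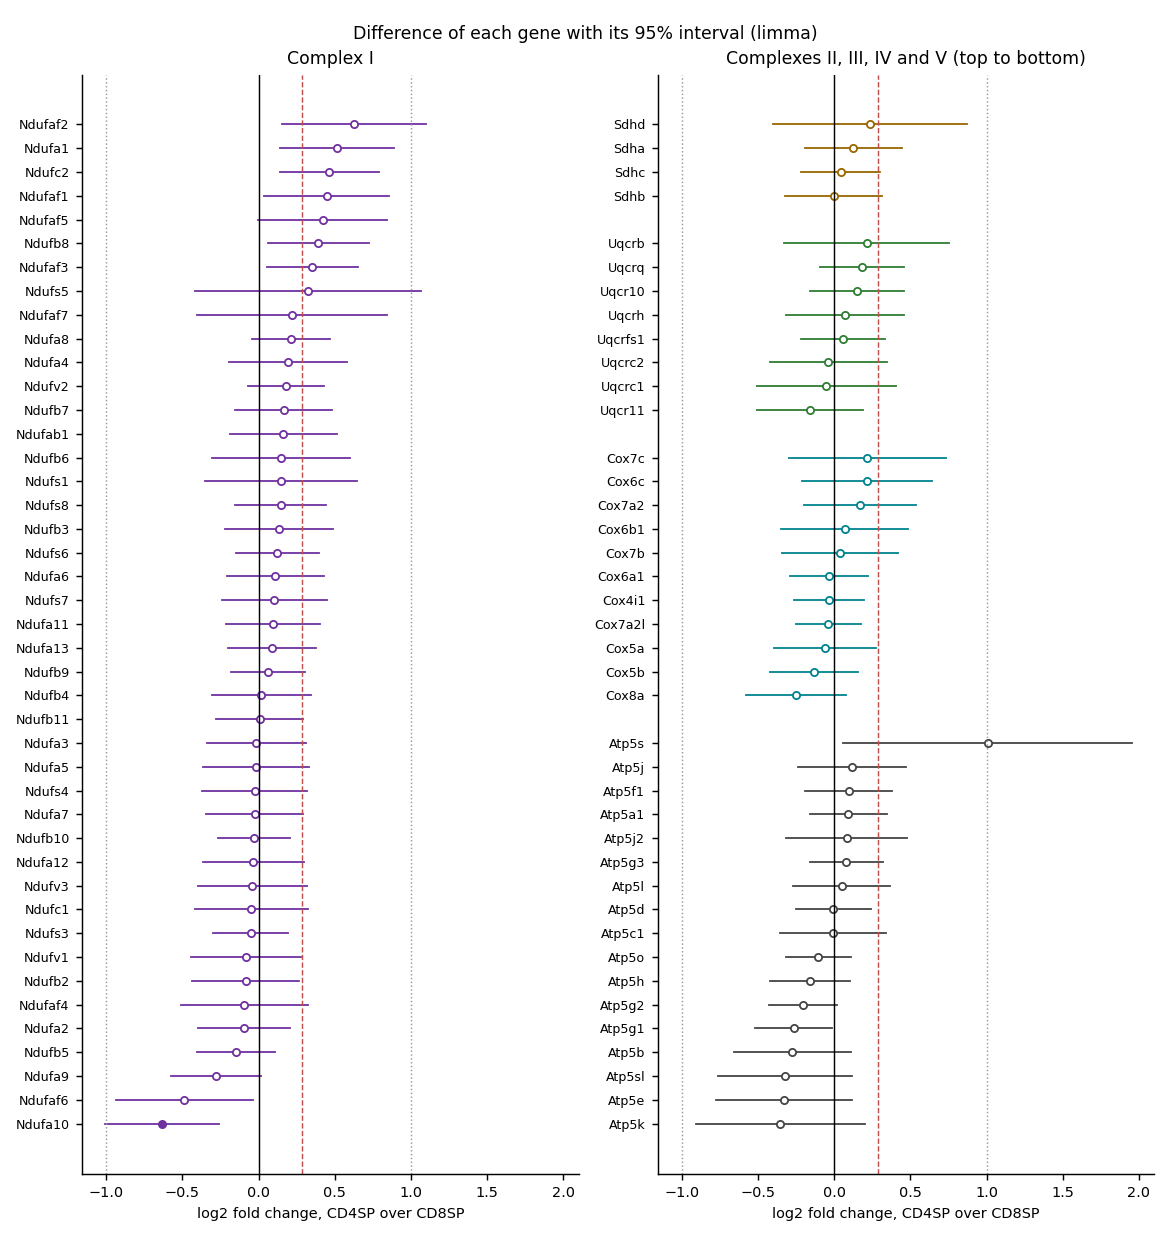
Log2 fold change (CD4SP over CD8SP) of 83 members with its 95% interval from limma, by complex, where the filled point marks an adjusted p under 0.05, dotted lines mark 2-fold and the dashed line the median of all tested genes at 0.28. Ndufa10, at -0.64, is the only filled point, and most members lie left of the dashed line.

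The members' log2 fold changes were centred lower than those of the whole table. Their median log2 fold change was 0.05, with 47 members above 0 and 37 below, while the median over all tested genes was 0.28 and 74.8% of them were above 0. Relative to that median, the members' median was -0.23, and 75 of 84 lay below it. The same relative value, taken in each library as the members' median deviation from the 6-library mean less that of all tested genes, was -0.29, 0.17 and -0.27 in CD4SP and 0.10, 0.07 and 0.24 in CD8SP replicates 1 to 3. CD4SP replicate 2 lay among the CD8SP libraries, so the populations overlapped, and the pooled SD within populations was 0.195. The sign of the members' own median depended on the scaling. With median-of-ratios rescaling it was -0.25 (all tested genes 0.00), with quantile normalization -0.10 (all tested genes -0.02), with ribosomal protein genes removed -0.11 (all tested genes 0.14), and with a correction for length and GC content -0.17 (all tested genes -0.03). The members' median was below that of all tested genes under every one of the 18 alternatives. The difference was -0.09 with quantile normalization, -0.14 with the length and GC correction, -0.19 with no filter on low values, and from -0.38 without CD4SP replicate 2 to -0.18 without CD4SP replicate 1 when each library was left out. With quantile normalization, with the length and GC correction, with no filter and without CD4SP replicate 1 it was smaller than the SD between libraries. After median-of-ratios rescaling, 8 members had an adjusted p under 0.05 with higher values in CD8SP (9.52%, against 7.47% of tested genes) and 0 with higher values in CD4SP (against 8.43%). No direction for the whole pathway held under every scaling, and the size of its position relative to other genes varied with the scaling.

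**Figure D4:**
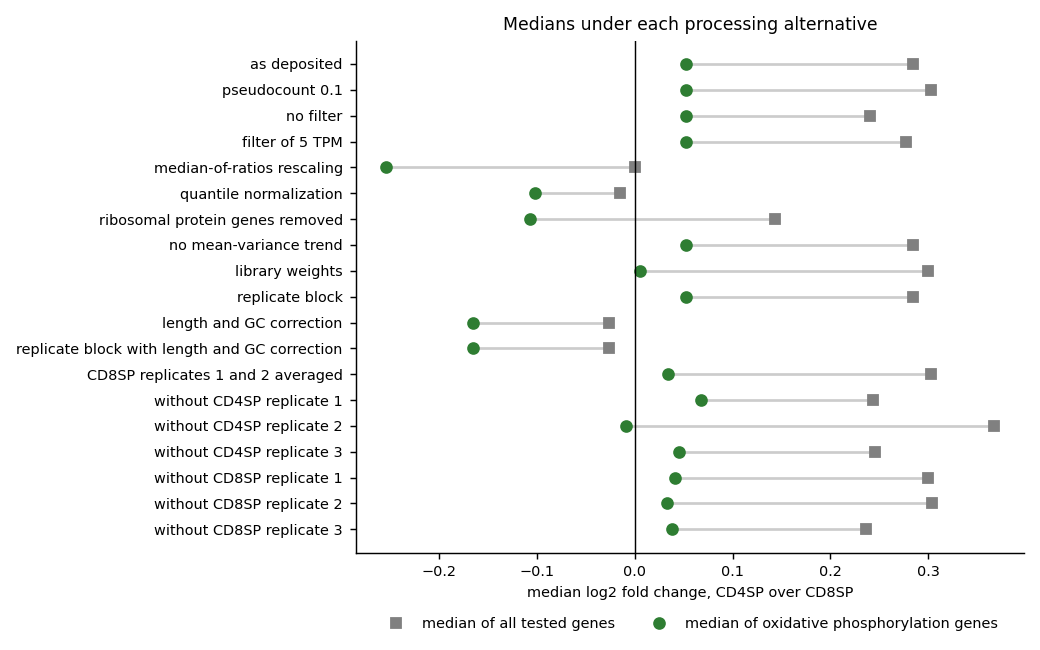
Median log2 fold change (CD4SP over CD8SP) of the oxidative phosphorylation genes (circles) and of all tested genes (squares) for the TPM as deposited and for each processing alternative, 1 row each. The circles lie left of the squares in all 19 rows, and they lie left of 0 after median-of-ratios rescaling, quantile normalization, removal of ribosomal protein genes, the length and GC corrections, and without CD4SP replicate 2.

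Complex I, which takes electrons from NADH, held 44 of the members. Of these 27 had log2 fold changes above 0 and 17 below, with a median of 0.10, from -0.64 to 0.63. The median of complex I was -0.00055 without CD4SP replicate 2, -0.21 with median-of-ratios rescaling, -0.11 with quantile normalization and -0.15 with the length and GC correction. The median of all tested genes was 0.37, 0.00, -0.02 and -0.03 at the same settings, against 0.28 as deposited. The sign of the complex I median thus depended on the scaling, which moved other genes too. The one member of complex I past the adjusted p was Ndufa10 (ENSMUSG00000026260.12, chr1:92439010-92473860, minus strand, GRCm38), an accessory subunit of the membrane arm. Ndufa10 measured 250, 165 and 219 TPM over CD4SP libraries, against 336, 349 and 291 TPM over CD8SP libraries. All 3 CD8SP libraries lay above all 3 CD4SP libraries, and the lowest value was that of CD4SP replicate 2. Its log2 fold change was -0.64 with an SE of 0.16 (adjusted p = 0.0286). Over the 18 alternatives it lay between -0.94 and -0.47, and the adjusted p lay between 0.00164 and 0.0980, under 0.05 in 13 of them. Without CD4SP replicate 2 it was -0.47 (adjusted p = 0.0260), without CD4SP replicate 3 the adjusted p was 0.0682, and without CD8SP replicate 1 or 2 it was 0.0931 and 0.0980.

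Other accessory subunits of complex I had separated populations without passing the adjusted p. Of 30 accessory subunits, all CD4SP libraries lay above all CD8SP libraries for 4, against 36.6% of tested genes. The reverse held for 2, Ndufa10 among them, against 6.61% of tested genes. Ndufa1, a small membrane-arm subunit encoded on the X chromosome, had 537, 692 and 540 TPM on the CD4SP side and 458, 454 and 329 TPM on the CD8SP side. Its log2 fold change was 0.52 with an SE of 0.16 (adjusted p = 0.0572). Ndufc2 stood at 150, 212 and 183 TPM across CD4SP libraries and at 130, 135 and 126 TPM across CD8SP libraries. For Ndufc2 the log2 fold change was 0.46 with an SE of 0.14 (adjusted p = 0.0514). Ndufb8 measured 534, 651 and 447 TPM over CD4SP libraries, against 396, 398 and 436 TPM over CD8SP libraries. The log2 fold change of Ndufb8 was 0.39 with an SE of 0.15 (adjusted p = 0.0892), and 0.25 without CD4SP replicate 2. In the other direction, Ndufa9, which sits where the peripheral arm meets the membrane arm, had 131, 114 and 143 TPM on the CD4SP side and 147, 153 and 170 TPM on the CD8SP side. Its log2 fold change was -0.28 (adjusted p = 0.154). These genes were named after their values were seen. Their order follows the TPM as deposited, and after median-of-ratios rescaling the log2 fold changes of Ndufa1, Ndufc2, Ndufb8 and Ndufa9 were 0.21, 0.16, 0.08 and -0.59, the last with an adjusted p of 0.0129. Ndufa9 also passed with ribosomal protein genes removed, with the length and GC correction (with or without the replicate block), and with quantile normalization. Ndufc2 and Ndufb8 passed with library weights, and each also without 1 CD4SP library (replicate 1 for Ndufc2, replicate 3 for Ndufb8), and Ndufc2 with a filter of 5 TPM.

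The 7 nuclear core subunits of complex I, which carry the flavin and the iron-sulfur clusters, had log2 fold changes between -0.08 and 0.18, and none passed the adjusted p, against 17.6% (CD4SP higher) and 3.23% (CD8SP higher) of tested genes. Ndufv1, the NADH-binding flavoprotein, stood at 167, 121 and 147 TPM across CD4SP libraries and at 165, 163 and 130 TPM across CD8SP libraries. The log2 fold change of Ndufv1 was -0.08, 0.04 without CD4SP replicate 2 and -0.39 (adjusted p = 0.04999) with median-of-ratios rescaling. Its partner Ndufv2 measured 233, 222 and 250 TPM over CD4SP libraries, against 208, 219 and 194 TPM over CD8SP libraries. Ndufv2 was the one core subunit of 7 whose populations did not overlap, against 36.6% of tested genes in that direction and 6.61% in the other, at a log2 fold change of 0.18 with a 95% interval from -0.07 to 0.43. Ndufs1, the largest iron-sulfur subunit, was the least abundant of the 7, at 83.0, 45.0 and 71.3 TPM over CD4SP and 62.7, 58.0 and 53.9 TPM over CD8SP libraries. Ndufs3, a subunit of the peripheral arm, stood at 209, 203 and 193 TPM across CD4SP libraries and at 196, 223 and 210 TPM across CD8SP libraries. The populations overlapped. Ndufs7, which carries the last iron-sulfur cluster before ubiquinone, measured 317, 276 and 268 TPM over CD4SP libraries, against 305, 288 and 217 TPM over CD8SP libraries. Ndufs8, also an iron-sulfur subunit, had 370, 308 and 327 TPM on the CD4SP side and 317, 333 and 261 TPM on the CD8SP side. For Ndufs7 and Ndufs8 as well the populations overlapped, and CD8SP replicate 3 was the lowest library.

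The most abundant row named for complex I was Ndufa4, a protein first assigned to complex I and since placed in complex IV. It stood at 606, 900 and 605 TPM across CD4SP libraries and at 645, 634 and 539 TPM across CD8SP libraries, where only CD4SP replicate 2 stood above the rest. Its paralogue Ndufa4l2, known as a hypoxia-responsive gene, was listed at 0 in all 6 libraries and did not pass the filter on low values.

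The 7 assembly factors of complex I, which help build it without staying in it, had a median log2 fold change of 0.35, above the 0.28 of all tested genes. None passed the adjusted p, against 17.6% (CD4SP higher) and 3.23% (CD8SP higher) of tested genes. After median-of-ratios rescaling the median of these 7 was 0.05 (all tested genes 0.00), and with quantile normalization 0.06 (all tested genes -0.02). They were low transcripts, at 11.9 to 54.9 TPM, and summed to 180, 173 and 190 TPM over CD4SP and 148, 146 and 146 TPM over CD8SP replicates 1 to 3. For Ndufaf1, Ndufaf2, Ndufaf3 and Ndufaf5 all CD4SP libraries lay above all CD8SP libraries, and for Ndufaf6 the reverse held, against 36.6% and 6.61% of tested genes. Ndufaf2 measured 30.1, 26.3 and 34.3 TPM over CD4SP libraries, against 16.0, 17.2 and 25.2 TPM over CD8SP libraries, with a log2 fold change of 0.63 and an SE of 0.21 (adjusted p = 0.0634). Ndufaf6 had 9.44, 11.6 and 12.8 TPM on the CD4SP side and 18.6, 13.8 and 16.1 TPM on the CD8SP side, with a log2 fold change of -0.49 and an SE of 0.20 (adjusted p = 0.114). Under the alternatives Ndufaf2 passed the adjusted p with library weights and without CD4SP replicate 2 or CD8SP replicate 3, and was at 0.33 (adjusted p = 0.330) with median-of-ratios rescaling. Ndufaf6 passed with that rescaling (-0.77), with quantile normalization and with the length and GC correction. The lowest of complex I was Ndufaf5, with 12.8 to 14.5 TPM over CD4SP and 8.52 to 11.2 TPM over CD8SP libraries. As a share of complex I TPM, which is free of library scaling, the assembly factors held 1.81%, 1.46% and 1.90% in CD4SP and 1.46%, 1.46% and 1.47% in CD8SP replicates 1 to 3. CD4SP replicate 2 fell within the CD8SP values on that measure, with an exact permutation test (two-sided) giving p = 0.3 (0.386 adjusted over 9 such shares).

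Complex II, succinate dehydrogenase, also serves the tricarboxylic acid cycle, and all 4 of its subunits are nuclear. Log2 fold changes lay between 0.00 and 0.24, and the populations overlapped for all 4, while 36.6% (CD4SP higher) and 6.61% (CD8SP higher) of tested genes did not overlap. The median was 0.08 as deposited, -0.01 to 0.16 when each library was left out, -0.22 with median-of-ratios rescaling and -0.18 with the length and GC correction. Sdhb, the iron-sulfur subunit, was the most abundant, at 456, 415 and 404 TPM over CD4SP and at 457, 482 and 350 TPM over CD8SP replicates 1 to 3. Sdha, the flavoprotein that oxidises succinate, stood at 182, 153 and 196 TPM across CD4SP libraries and at 172, 172 and 142 TPM across CD8SP libraries. The membrane anchor Sdhc was the steadiest, at 128, 119 and 133 TPM over CD4SP and 116, 127 and 126 TPM over CD8SP libraries. The other anchor, Sdhd, varied most within a population, at 178, 116 and 99.5 TPM over CD4SP and 127, 135 and 72.9 TPM over CD8SP libraries. The 2-fold interval held for all 4, with the widest, that of Sdhd, running from -0.40 to 0.87.

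Complex III, the cytochrome bc1 complex, had 8 members with log2 fold changes between -0.16 and 0.21, and no member separated the populations, against 36.6% and 6.61% of tested genes. Uqcr11, at -0.16 (adjusted p = 0.468), passed the adjusted p with library weights (-0.29) and without CD4SP replicate 2 (-0.34). The median was 0.06 as deposited, 0.03 to 0.16 when each library was left out (0.16 without CD4SP replicate 1), and -0.24 with median-of-ratios rescaling. Uqcrfs1, the Rieske iron-sulfur protein, measured 273, 280 and 336 TPM over CD4SP libraries, against 273, 276 and 302 TPM over CD8SP libraries. Uqcrh, the hinge protein that helps dock cytochrome c, was the most abundant, at 942, 1465 and 1092 TPM over CD4SP and 1032, 1009 and 1253 TPM over CD8SP libraries. The large core proteins ran the other way in CD4SP replicate 2. Uqcrc1 had 451, 254 and 369 TPM on the CD4SP side and 391, 376 and 320 TPM on the CD8SP side. Uqcrc2, the lowest of the complex, stood at 205, 131 and 188 TPM across CD4SP libraries and at 179, 177 and 173 TPM across CD8SP libraries. In both, CD4SP replicate 1 was the highest and CD4SP replicate 2 the lowest of the 6 libraries.

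Complex IV, cytochrome c oxidase, was the complex with the highest median level. Log2 fold changes of its 11 members lay between -0.25 and 0.22, and no member separated the populations, against 36.6% and 6.61% of tested genes. The median was -0.03 as deposited, 0.08 without CD4SP replicate 1, 0.02 without CD4SP replicate 3, -0.10 without CD4SP replicate 2 and -0.34 with median-of-ratios rescaling. Cox4i1, the widely used isoform of subunit 4, measured 1594, 1640 and 1419 TPM over CD4SP libraries, against 1577, 1539 and 1648 TPM over CD8SP libraries. Its log2 fold change was -0.04 with a 95% interval from -0.27 to 0.19. The paralogue Cox4i2 was listed at 0 in all 6 libraries. Cox5a had 477, 705 and 591 TPM on the CD4SP side and 589, 612 and 627 TPM on the CD8SP side. Cox5b stood at 675, 848 and 709 TPM across CD4SP libraries and at 753, 781 and 905 TPM across CD8SP libraries. Both are matrix-side subunits, and their populations overlapped.

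The remaining isoform pairs of complex IV followed the same use of the widely expressed form. Cox6a1 measured 908, 1131 and 943 TPM over CD4SP libraries, against 1024, 979 and 1038 TPM over CD8SP libraries, while Cox6a2, the heart and muscle form, was listed at 0 throughout. Cox6b1 had 491, 832 and 701 TPM on the CD4SP side and 626, 592 and 669 TPM on the CD8SP side. Its testis form Cox6b2 was listed at 0 in all CD4SP libraries and in CD8SP replicate 3, and at 2.62 and 1.60 TPM in CD8SP replicates 1 and 2. Cox7a2 stood at 333, 511 and 394 TPM across CD4SP libraries and at 368, 332 and 383 TPM across CD8SP libraries. Its muscle form Cox7a1 was at 3.12 and 3.74 TPM in CD4SP replicates 1 and 3 and listed at 0 in the other libraries. Cox7a2l, a related factor of respiratory supercomplexes, was the steadiest of complex IV, at 746, 700 and 700 TPM over CD4SP and 732, 741 and 731 TPM over CD8SP libraries. Cox8a measured 948, 1399 and 1101 TPM over CD4SP libraries, against 1354, 1309 and 1388 TPM over CD8SP libraries, and Cox8b was listed at 0 throughout. The log2 fold change of Cox8a was -0.25 (adjusted p = 0.240), -0.12 without CD4SP replicate 1 and -0.40 (adjusted p = 0.0206) without CD4SP replicate 2, and it also passed with library weights (-0.33, adjusted p = 0.0249). The lowest of the 11 was Cox7c, at 295, 476 and 418 TPM over CD4SP and 282, 294 and 451 TPM over CD8SP libraries. The 8 named rows that did not reach 1 TPM in 3 libraries were Ndufa4l2, Cox4i2, Cox6a2, Cox6b2, Cox7a1, Cox7b2, Cox8b and Cox8c, of which 6 were at 0 in all libraries. On the other side of that limit, the lowest members kept were Atp5s, Ndufaf5 and Ndufs5.

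Complex V has a catalytic F1 head, a membrane Fo part with a ring of c subunits, and a peripheral stalk. For 3 of its 17 members all CD8SP libraries lay above all CD4SP libraries, against 6.61% of tested genes. The reverse held for 0, against 36.6% of tested genes. Log2 fold changes of the 17 lay between -0.36 and 1.01, with 7 above 0. The median was -0.01 as deposited, -0.11 to 0.01 when each library was left out, and -0.32 with median-of-ratios rescaling. Among F1 subunits, Atp5a1 had 457, 438 and 477 TPM on the CD4SP side and 448, 457 and 385 TPM on the CD8SP side. The catalytic subunit Atp5b stood at 942, 657 and 1008 TPM across CD4SP libraries and at 1078, 1105 and 929 TPM across CD8SP libraries. The rotor subunit Atp5c1 measured 863, 618 and 921 TPM over CD4SP libraries, against 763, 811 and 806 TPM over CD8SP libraries. Both had their lowest value in CD4SP replicate 2, and all 3 genes overlapped between the populations. The log2 fold change of Atp5b was -0.28 with a 95% interval from -0.66 to 0.11, and -0.09 without CD4SP replicate 2. It passed the adjusted p with median-of-ratios rescaling (-0.58, adjusted p = 0.0161) and with the length and GC correction (-0.51, adjusted p = 0.0312). In the peripheral stalk, 4 genes were at 516 to 1043 TPM on average, with log2 fold changes from -0.16 to 0.12. One of these 4, Atp5o, had all CD8SP libraries above all CD4SP libraries, against 6.61% of tested genes (36.6% in the other direction). It was at 492, 498 and 501 TPM over CD4SP and 526, 541 and 537 TPM over CD8SP, a log2 fold change of -0.10 with a 95% interval from -0.32 to 0.11. Atp5o was at -0.41 (adjusted p = 0.0395) with median-of-ratios rescaling and at -0.31 (adjusted p = 0.0412) with the length and GC correction.

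The c subunit of Fo is encoded by 3 genes whose mature proteins are known to be identical. Atp5g3 was the most abundant of complex V, at 1231, 1270 and 1444 TPM over CD4SP and at 1284, 1263 and 1181 TPM over CD8SP replicates 1 to 3. Atp5g1 had 294, 334 and 278 TPM on the CD4SP side and 372, 349 and 366 TPM on the CD8SP side. Atp5g2 stood at 531, 560 and 496 TPM across CD4SP libraries and at 611, 611 and 609 TPM across CD8SP libraries. The populations did not overlap for Atp5g1 and Atp5g2, and they did for Atp5g3. Of all tested genes, 6.61% were separated with CD8SP higher and 36.6% with CD4SP higher. Log2 fold changes were -0.27 for Atp5g1 (adjusted p = 0.120), -0.21 for Atp5g2 (adjusted p = 0.163) and 0.08 for Atp5g3 (adjusted p = 0.612). With median-of-ratios rescaling Atp5g1 was at -0.57 (adjusted p = 0.0350) and Atp5g2 at -0.51 (adjusted p = 0.0317). Both also passed with ribosomal protein genes removed, with library weights and with the length and GC correction, and Atp5g1 passed with quantile normalization and without CD4SP replicate 2. The summed c subunit level was 2146 ± 82.5 TPM over CD4SP and 2215 ± 56.0 TPM over CD8SP libraries (SD, n = 3). As a share of that sum, Atp5g3 made up 59.9%, 58.7% and 65.1% in CD4SP and 56.6%, 56.8% and 54.8% in CD8SP replicates 1 to 3. Atp5g1 made up 14.1% ± 1.46 of it in CD4SP, against 16.4% ± 0.637 in CD8SP, and Atp5g2 24.7% ± 2.02 and 27.6% ± 0.656 (SD, n = 3). None of these 3 shares overlapped between the populations. Together they make up the whole c subunit sum of a library, so they are not 3 separate results. An exact permutation test (two-sided) gave p = 0.1 for each, the smallest that 3 libraries against 3 can give, and 0.3 adjusted over 9 shares. The difference in the Atp5g3 share, 5.14 percentage points, was 3.20 to 6.41 when each library in turn was left out. Atp5g1 has a near-identical copy, given further below, and its part in these levels and shares was not tested.

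The widest difference of complex V was that of Atp5s, coupling factor B, which is no core part of the enzyme. It measured 16.5, 11.9 and 7.34 TPM over CD4SP libraries, against 6.43, 8.28 and 2.37 TPM over CD8SP libraries, so the populations overlapped. The log2 fold change was 1.01 with an SE of 0.41 (adjusted p = 0.117). It was 0.57 without CD8SP replicate 3, 0.64 with quantile normalization and 0.66 with library weights, and it passed the adjusted p in 1 of the 18 alternatives, with the replicate number as a block (adjusted p = 0.0411). Atp5sl, annotated as Dmac2, is likewise no subunit of the enzyme. It had 13.6, 16.9 and 15.0 TPM on the CD4SP side and 20.7, 21.8 and 15.5 TPM on the CD8SP side. Its log2 fold change of -0.32 passed the adjusted p with library weights alone (-0.48). In the small membrane subunits, Atp5k had the lowest log2 fold change of the complex at -0.36, at 147, 240 and 216 TPM over CD4SP and 214, 212 and 354 TPM over CD8SP libraries, and only CD8SP replicate 3 and CD4SP replicate 1 stood apart from the rest.

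CD4SP replicate 2 stood apart among these libraries, and its values followed the length of the coding sequence. Of the 84 members, 40 had their highest value in CD4SP replicate 2 and 26 their lowest in CD4SP replicate 1. Across the 84 members, the deviation of log2(TPM + 1) from the 6-library mean had a Pearson correlation of -0.71 with log2 coding length in CD4SP replicate 2 and of 0.51 in CD4SP replicate 1. In the other 4 libraries it lay between -0.23 and 0.40. The deviations of a gene cancel out over the 6 libraries, so a trend in 1 library draws the others the opposite way. These correlations describe genes within 1 library, which share its preparation, and over all tested genes with a coding length they were -0.10 and 0.12 in these 2 libraries. In CD4SP replicate 2, the 33 members with coding sequences under 400 nt had a median deviation of 0.28, and the 13 members over 1000 nt had one of -0.31. In CD4SP replicate 1 the same medians were -0.20 and 0.13. Uqcrh at 1465 TPM and Uqcrc1 at 254 TPM are examples from complex III. Within populations, the median coefficient of variation of the members was 15.0% in CD4SP and 7.92% in CD8SP libraries, against 16.9% and 10.4% for tested genes in the same range of levels. That range, 8.81 to 1570 TPM, does not match the members' levels. Across the 84 members, the log2 fold change itself had a correlation of -0.06 with log2 coding length, and of 0.29 without CD4SP replicate 2. Without that library, 1 member was past the adjusted p with higher values in CD4SP (1.19%, against 28.7% of tested genes) and 4 with higher values in CD8SP (4.76%, against 4.27%), and the members' median was -0.01 against 0.37 for all tested genes.

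**Figure D5:**
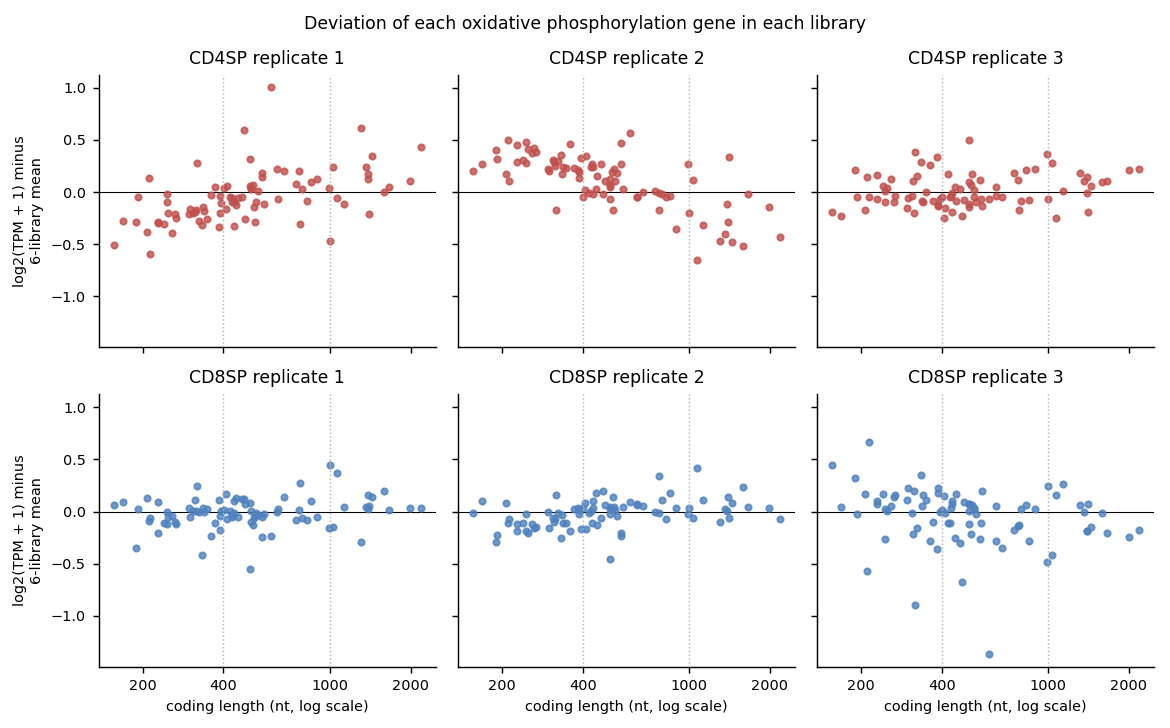
Deviation of log2(TPM + 1) from the 6-library mean against the longest annotated coding length (nt, log axis) for the 84 members, with 1 panel per library and dotted lines at 400 and 1000 nt. In CD4SP replicate 2 the points fall from above 0 for short genes to below 0 for long ones, the reverse of CD4SP replicate 1, and the points of CD8SP replicates 1 and 2 stay closest to 0.

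CD8SP replicates 1 and 2 were the closest libraries. Their median absolute difference was 0.07 on the log2 scale over the members and 0.11 over all tested genes, while other pairs within a population differed by 0.13 to 0.36 over the members. Without counts, it could not be tested whether they differ beyond sampling noise. When they were averaged to 1 sample, no member was past the adjusted p by limma, against 9.05% (CD4SP higher) and 1.58% (CD8SP higher) of tested genes.

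Near-identical sequences elsewhere could take or give reads for some members. Of the 84, 18 had another annotated gene on the same strand that was 95% or more identical over 200 nt or more. Ndufs5 was the clearest case, at 14.2, 10.1 and 15.4 TPM over CD4SP and 13.9, 13.1 and 5.75 TPM over CD8SP replicates 1 to 3. Its copy BC002163, 99.4% identical over 319 nt, stood at 49.7, 64.1 and 66.2 TPM across CD4SP libraries and at 41.9, 51.3 and 52.8 TPM across CD8SP libraries. Summed, the pair was at 73.2 ± 8.87 TPM over CD4SP and 59.6 ± 4.38 TPM over CD8SP libraries (SD, n = 3). The level of Ndufs5 alone is therefore uncertain. Cox7c shared 233 nt at 99.6% identity with Gm10012, which was listed at 14.1 to 30.6 TPM. Atp5g1 shared 411 nt at 99.8% identity with Gm10039, which had no row of its own. The level of Atp5g1 and the c subunit shares are therefore uncertain too.

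Genes that feed or build the chain, outside the members, were read from lists of related genes. Among 14 electron carriers and ubiquinone genes tested, 1 was past the adjusted p in each direction, against 17.6% (CD4SP higher) and 3.23% (CD8SP higher) of all tested genes. These were the paired subunits of the electron transfer flavoprotein, which passes electrons from fatty acid oxidation to ubiquinone. Etfa measured 108, 87.0 and 94.5 TPM over CD4SP libraries, against 69.4, 65.2 and 52.3 TPM over CD8SP libraries (log2 fold change 0.63, SE 0.15, adjusted p = 0.0237). Etfb had 260, 243 and 304 TPM on the CD4SP side and 409, 370 and 347 TPM on the CD8SP side (log2 fold change -0.48, SE 0.13, adjusted p = 0.0295). The populations did not overlap for either, and the directions were opposite although both proteins form 1 dimer. These directions held in all 18 alternatives, and after median-of-ratios rescaling the log2 fold change of Etfa was 0.32 (adjusted p = 0.0996) and that of Etfb -0.79. Cytochrome c itself, Cycs, stood at 64.1, 70.2 and 67.8 TPM across CD4SP libraries and at 55.9, 54.2 and 60.1 TPM across CD8SP libraries (adjusted p = 0.185).

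Among 32 further assembly factors tested, 2 were past the adjusted p with higher values in CD4SP and 1 with higher values in CD8SP, against 17.6% and 3.23% of all tested genes. Their median log2 fold change was 0.22 and 24 were above 0, against 0.28 and 74.8% for all tested genes. Sdhaf1, which helps insert iron-sulfur clusters into Sdhb, was the one that was also over 2-fold. It measured 76.0, 112 and 100.02 TPM over CD4SP libraries, against 29.5, 29.1 and 34.5 TPM over CD8SP libraries, with a log2 fold change of 1.58 and an SE of 0.17 (adjusted p = 0.000667). Its client Sdhb had a log2 fold change of 0.00 with a 95% interval from -0.32 to 0.32. Cox14, a complex IV assembly factor, had 182, 252 and 220 TPM on the CD4SP side and 156, 154 and 160 TPM on the CD8SP side (log2 fold change 0.46, adjusted p = 0.0453). Sco2, a copper chaperone of complex IV, stood at 6.43, 4.50 and 5.23 TPM across CD4SP libraries and at 11.2, 11.4 and 11.7 TPM across CD8SP libraries (log2 fold change -0.98, adjusted p = 0.0120). The populations did not overlap for any of the 3. After median-of-ratios rescaling Sdhaf1 and Sco2 were still past the adjusted p, while Cox14 was at 0.16 (adjusted p = 0.603). Over the 18 alternatives, Sdhaf1 was past the adjusted p in 18, Sco2 in 15, Etfb in 12, Etfa in 9 and Cox14 in 5.

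In the tricarboxylic acid cycle and pyruvate dehydrogenase list, limma gave 0 of 17 genes past the adjusted p and 0 at an unadjusted p under 0.05, with a median log2 fold change of 0.20. Of all tested genes, 17.6% and 3.23% were past the adjusted p (CD4SP and CD8SP higher), 37.1% had an unadjusted p under 0.05, and the median was 0.28. The 6 ATP synthase accessory and carrier genes likewise gave 0 by both counts, with a median of -0.01. Of 11 regulators tested, 0 were past the adjusted p and 1 had an unadjusted p under 0.05, with a median of 0.02. Ppargc1a, a coactivator known to drive mitochondrial biogenesis, was listed at 0 in all 6 libraries. Nrf1 measured 31.98, 18.7 and 33.9 TPM over CD4SP libraries, against 30.0, 31.98 and 28.6 TPM over CD8SP libraries, and Yy1 was at 73.0, 59.5 and 84.8 TPM and 53.5, 52.4 and 54.2 TPM.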

How the data were processed

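Polyadenylated RNA of 6 libraries (3 CD4SP, 3 CD8SP, 1000 cells each) was analysed. The authors aligned reads with HISAT2 to mm10, estimated expression with StringTie and deposited TPM per gene and library. TPM keeps no sequencing depth, so depth is unknown and no detection floor was computed. Whether strand or duplicates were considered was not given in the sources used here. Genes with TPM of at least 1 in 3 libraries entered a limma model (limma 3.58.1, R 4.3.3, lmFit and trended eBayes) of log2(TPM + 1), a scale that understates changes of low genes, with population as the only term and Benjamini-Hochberg adjustment. The script was tested on simulated data. Replicate numbers were not taken to pair libraries. Exact permutation tests used scipy 1.17.1, and no p is given for sums over members. Copies were searched with blastn 2.17.0 among GENCODE M21 transcripts. Members and lists were chosen with earlier results of these data known. Named were members past the adjusted p, the highest and lowest per complex, fixed isoform families and fixed core subunits, and other genes were named after their values were seen. The alternatives were another pseudocount (0.1), no filter or one of 5 TPM, other scalings, no trend, library weights, a replicate block, a length and GC correction, averaging of 2 libraries, and leaving out each library. Values of 1 member and of 1 marker are not reported here.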

Additional observations from a re-analysis of the deposited data

How the results depend on the processing

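The count of members called was 0 in every alternative except the replicate block, where it was 1 (Atp5s). Each count of members below is followed by the share of all tested genes at the same setting. Members past the adjusted p with higher values in CD4SP numbered 0 as deposited (17.6%), 1 with a filter of 5 TPM (19.5%), 3 with library weights (31.2%), 1 with the replicate block (12.4%), and 0 to 1 when each library was left out (8.72% to 28.7%). Those with higher values in CD8SP numbered 1 as deposited (3.23%), 8 with median-of-ratios rescaling (7.47%), 4 with quantile normalization (6.88%), 4 with ribosomal protein genes removed (4.39%), 0 without a mean-variance trend (2.72%), 6 with library weights (5.67%), 7 with the length and GC correction (8.0%), 2 when that correction was joined with the replicate block (5.76%), 0 with CD8SP replicates 1 and 2 averaged (1.58%), and 0 to 4 when each library was left out (1.51% to 4.27%). As shares of the 84 members, 8, 7, 6 and 4 are 9.52%, 8.33%, 7.14% and 4.76%. The members' median log2 fold change was -0.25 with median-of-ratios rescaling, -0.10 with quantile normalization, -0.11 with ribosomal protein genes removed, -0.17 with the length and GC correction, with or without the replicate block, and -0.01 to 0.07 when each library was left out. Relative to all tested genes it stayed negative in all of these, from -0.38 without CD4SP replicate 2 to -0.09 with quantile normalization. The ratio of summed TPM, 1.01 as deposited, was 0.821 with median-of-ratios rescaling and 0.904 with ribosomal protein genes removed. Non-overlapping members, counted after the values were seen, numbered 0 (CD4SP higher, 19.0%) and 25 (CD8SP higher, 17.8%) with median-of-ratios rescaling, 3 (26.7%) and 12 (10.6%) with ribosomal protein genes removed, and 10 to 19 (39.5% to 55.1%) and 6 to 18 (7.42% to 10.2%) when each library was left out. The cause of these changes was not tested.

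Samples with the same replicate number did not deviate together (correlations 0.05, -0.02 and 0.09), so the numbers were not taken to pair libraries. With the replicate block the count of members past the adjusted p was 1 in each direction. Of the 15 members past the adjusted p in at least 1 setting, a set narrowed after the values were seen, 1 value of 270 changed sign, that of Ndufv1, which ran from -0.19 to 0.04 when each library was left out and was 0.0423 without CD4SP replicate 2. Among all 84 members, leaving out 1 library changed the sign of 6 to 17, median-of-ratios rescaling that of 38, the length and GC correction 32, quantile normalization 28, removal of ribosomal protein genes 26 and library weights 9. Median-of-ratios rescaling moved the median of all tested genes as well, from 0.28 to 0.00. Members near 0 changed sign with that shift, so the 38 are no measure of how stable single members are. Differences in shares changed sign in 3 of 56 values. Without counts, the depth behind low members such as Atp5s and the assembly factors is unknown.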
